A study of Mus musculus with 8 samples.

Results

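The expression of 33 marker genes of Kupffer cells, monocytes and other leukocytes was examined in whole liver, gene by gene and mouse by mouse. Members were the rows of the raw count table whose Ensembl identifiers carry the 33 listed symbols in the GRCm38 annotation. All 33 were found among the 18095 genes of the table, and all 33 were among the 14866 genes that passed the expression filter and were tested. The livers of 8 male mice were sequenced, 4 of them HFD WT and 4 HFD Inpp4b-/-. HFD stands for the high-fat diet that both groups shared, which was given to their dams from before mating and then to the pups. All mice were 12 weeks old per the labels. Inpp4b-/- mice carry a germline deletion of *Inpp4b*, a phosphatase of phosphoinositide signaling, so that every liver cell type is affected and not the macrophages alone. The strain background is C57BL/6 in the labels but FVB in the study's methods. The comparison between genotypes asks whether the loss of INPP4B on a HFD was accompanied by a different level of resident or recruited macrophage transcripts in the liver.

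Kupffer cells are the resident macrophages of the liver and sit inside the sinusoids, where they take up bacteria, dying red blood cells and lipoprotein debris. They arise mainly before birth and renew themselves locally, and they carry surface receptors such as CLEC4F and TIM4 that newly arrived macrophages lack at first. Monocytes enter the liver from blood through the receptor CCR2 and its ligand CCL2, and in fatty liver disease they can replace part of the resident pool.

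*Inpp4b* (chromosome 8, 81342556 to 82127914) received 6, 20, 5 and 8 counts in HFD WT and 33, 10, 9 and 14 counts in HFD Inpp4b-/-, for replicates 1 to 4 as labelled. The targeted gene was thus not depleted where the label says Inpp4b-/- (two-sided exact permutation test on log2 CPM, p = 0.486, n = 4 per genotype), and reads inside and outside the deleted part were not separated in the table. HFD WT and HFD Inpp4b-/- below always mean the libraries labelled so, and each direction rests on these labels. HFD WT libraries held 25893430 to 31427831 counts and HFD Inpp4b-/- libraries held 32738435 to 36662531. The hepatocyte marker *Alb* was at 52520 to 55900 CPM in HFD WT and at 56220 to 70750 CPM in HFD Inpp4b-/-. It did not overlap, as did 4.63% of all tested genes in this direction, and was not called (edgeR, adjusted p = 0.474). CPM is the count of a gene divided by the normalized library total and scaled by 1e+06. Values for single libraries are given in the order of replicates 1 to 4. The labels give each library a number of its own but say nothing on litters, cages or days, so p-values measure the spread between these samples, whatever they share.

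Libraries differed from each other in the summed level of the marker genes before any comparison of genotypes. Summed over the 33 members, CPM came to 351, 603, 505 and 698 in HFD WT against 752, 680, 711 and 520 in HFD Inpp4b-/-. *Slc40a1*, which hepatocytes also make, supplied the most of any member, 118 to 170 CPM in HFD WT and 164 to 263 CPM in HFD Inpp4b-/-. The sum therefore does not measure macrophages alone. HFD WT replicate 1 held the lowest level of 25 of the 33 genes, and HFD WT replicate 4 held the highest level of 12. HFD Inpp4b-/- replicate 3 was highest for 11 genes. The HFD WT libraries thus spanned nearly the whole range that was seen in both genotypes. In whole liver, fewer cells of a type and less RNA per cell cannot be told apart.

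**Figure D1:**
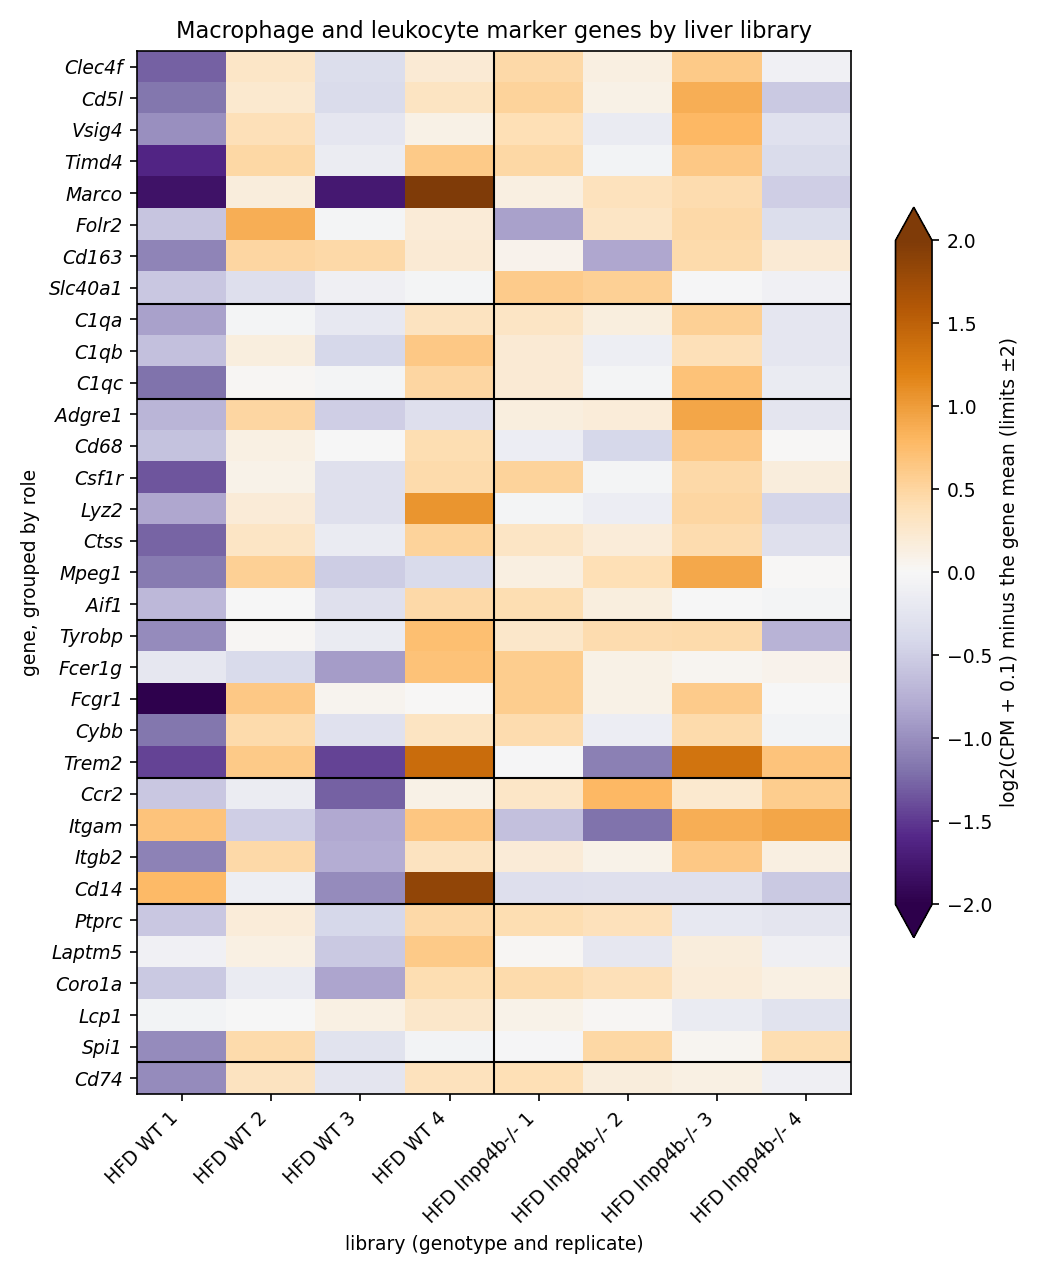
Level of each of the 33 genes (rows, grouped by role) in each of the 8 libraries (columns), as log2(CPM + 0.1) minus the mean of the gene over all libraries. HFD WT replicate 1 is low across most rows, with the lowest level of 25 genes, and HFD WT replicate 4 is high in *Marco*, *Lyz2* and *Cd14*.

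No member was differentially expressed between the genotypes when a call required an adjusted p under 0.10 with a fold over 1.3 (edgeR's quasi-likelihood test with Benjamini-Hochberg adjustment, smallest adjusted p = 0.244). Over all genes, 174 of 14866 passed (1.17%), 0.552% higher and 0.619% lower in HFD Inpp4b-/-. DESeq2 also called 0 of the 33. At an unadjusted p under 0.05 there were 2 members, *Slc40a1* and *Ccr2*, both higher in HFD Inpp4b-/-. Among all tested genes 13.9% reached that p, 6.8% higher and 7.14% lower. The log2 fold change, taken as HFD Inpp4b-/- minus HFD WT, was above 0 for 26 members and below 0 for 7, and 50.4% of all tested genes were above 0. The median over the members was 0.24, the range was -1.16 to 1.01, and the median over all tested genes was 0.0027. Without HFD WT replicate 1, 19 members were above 0 and 14 below, with a median of 0.037. Without HFD WT replicate 4, 29 were above 0 and 4 below, with a median of 0.45. Members that share a cell of origin are not independent of each other, so their count of signs is a description.

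**Figure D2:**
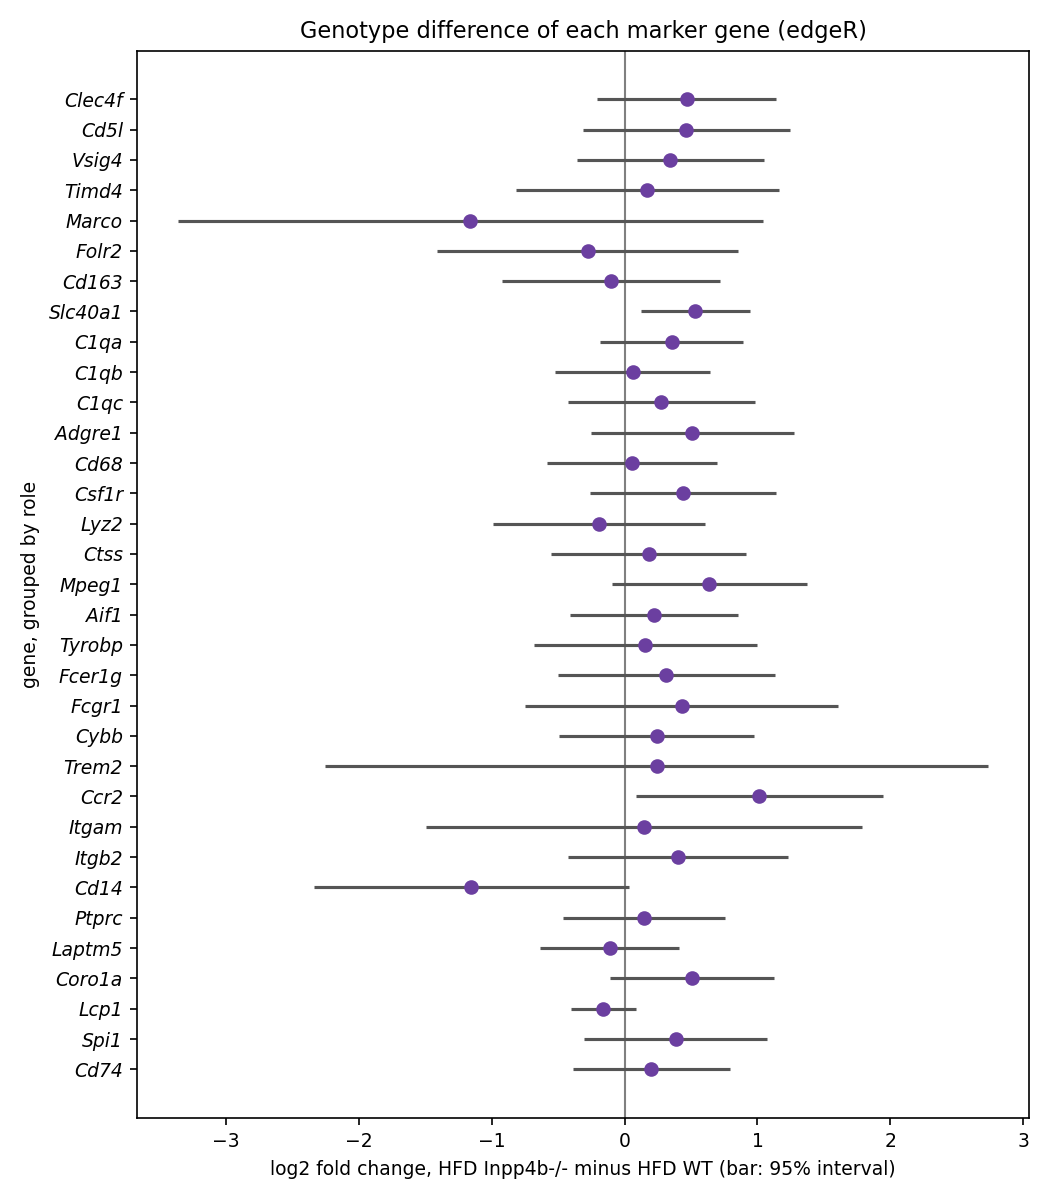
Log2 fold change of each of the 33 genes (point) with its 95% interval (bar), for HFD Inpp4b-/- minus HFD WT. The intervals of *Slc40a1* (0.126 to 0.941) and *Ccr2* (0.085 to 1.94) lie above 0 and the others include 0.

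Among the 8 resident Kupffer cell genes, 5 had a log2 fold change above 0 and 3 below, with a median of 0.26, and 0 were called. *Clec4f* (ENSMUSG00000014542, chromosome 6, 83644542 to 83656187, minus strand) encodes a C-type lectin carried by mouse Kupffer cells, and it had the highest level per exon length of the group, at 21.9 CPM per kb. It was at 20.7, 61.9, 40.2 and 59.0 CPM in HFD WT and at 70.1, 55.9, 77.6 and 48.0 CPM in HFD Inpp4b-/-. HFD WT replicate 1 lay far below the other 7 libraries, and HFD WT replicates 2 and 4 lay inside the range of HFD Inpp4b-/-. The means were 62.9 ± 13.4 CPM in HFD Inpp4b-/- and 45.4 ± 19.1 CPM in HFD WT (SD, n = 4), and the log2 fold change of 0.47 ± 0.30 (SE) did not pass (edgeR, adjusted p = 0.526, 95% interval -0.204 to 1.14). Leaving out HFD WT replicate 1 lowered it to 0.23.

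*Timd4* (chromosome 11, 46810800 to 46844332), which encodes the phosphatidylserine receptor TIM4 of long-lived resident macrophages, was at 0.885, 4.13, 2.63 and 4.57 CPM in HFD WT. In HFD Inpp4b-/- it was at 4.11, 2.81, 4.60 and 2.25 CPM. Its order among the libraries was close to that of *Clec4f*, with HFD WT replicate 1 again the lowest. The ratio of *Timd4* to *Clec4f* CPM lay between 0.0429 and 0.0775 in HFD WT and between 0.0468 and 0.0593 in HFD Inpp4b-/-, and these ranges overlapped. *Timd4* had a log2 fold change of 0.17 ± 0.44 (SE).

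The most divergent resident gene was *Marco* (chromosome 1, 120474538 to 120505024), a scavenger receptor for bacteria. Its level was 0.221, 1.17, 0.236 and 8.72 CPM in HFD WT and 1.14, 1.34, 1.42 and 0.702 CPM in HFD Inpp4b-/-. A single library, HFD WT replicate 4, lay several-fold above all others, and 2 HFD WT libraries lay below all those labelled HFD Inpp4b-/-. The fitted log2 fold change of -1.16 ± 0.99 (SE) changed sign to 1.07 when HFD WT replicate 4 was left out (edgeR, adjusted p = 0.646 with all libraries).

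The iron exporter ferroportin, encoded by *Slc40a1* (chromosome 1, 45908068 to 45926523), returns iron from degraded red blood cells to blood and is also made by hepatocytes. It was chosen for its p-value after the values were seen. It was at 118, 139, 162 and 170 CPM in HFD WT and at 263, 255, 171 and 164 CPM in HFD Inpp4b-/-. Replicates 1 and 2 of HFD Inpp4b-/- lay above all others, while replicate 4 lay within the HFD WT range. Replicates 1 and 2 of HFD Inpp4b-/- also differed from replicates 3 and 4 in the hepatocyte marker *Cps1*, with 1329 and 1063 against 3366 and 2922 CPM, and the part of this difference in the *Slc40a1* values was not tested. *Slc40a1* had a log2 fold change of 0.53 ± 0.18 (SE) with an adjusted p of 0.244 (edgeR), the smallest among the 33 members.

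The other resident genes gave no separation of the genotypes. *Cd5l*, a secreted scavenger protein of tissue macrophages, ranged from 12.5 to 35.0 CPM in HFD WT and from 19.4 to 51.3 CPM in HFD Inpp4b-/-. *Vsig4*, the complement receptor of Kupffer cells, ranged from 4.65 to 12.3 CPM and from 7.64 to 16.2 CPM in the same order. The log2 fold changes of *Cd5l* and *Vsig4* were 0.46 and 0.34. *Folr2*, a folate receptor of resident macrophages, stayed under 1 CPM in every library (log2 fold change -0.28), and *Cd163*, the haemoglobin scavenger receptor, ranged from 1.99 to 6.05 CPM over all libraries (-0.10). *Folr2* shares 975 exon bases with the antisense gene *Gm10602*, so that its counts are uncertain where strand was not used.

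All 3 complement C1q genes had a log2 fold change above 0, with a median of 0.28, and 0 were called. *C1qa*, *C1qb* and *C1qc* encode the chains that assemble into C1q, the recognition molecule of the classical complement pathway, and in liver they are made by macrophages. They lie side by side on chromosome 4, with *C1qb* from 136880129 to 136886187, *C1qc* from 136889804 to 136893065 and *C1qa* from 136895917 to 136898803, all on the minus strand.

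*C1qa* was at 12.3, 22.1, 19.7 and 28.5 CPM in HFD WT and at 27.9, 25.1, 33.5 and 19.4 CPM in HFD Inpp4b-/-. *C1qb* was at 11.1, 18.9, 12.8 and 26.6 CPM in HFD WT and at 19.7, 15.8, 22.2 and 14.7 CPM in HFD Inpp4b-/-. *C1qc* was at 6.93, 16.3, 15.6 and 22.6 CPM in HFD WT and at 18.6, 15.5, 26.1 and 14.2 CPM in HFD Inpp4b-/-. For each chain HFD WT replicate 1 was the lowest library, HFD WT replicate 4 was the highest of its genotype, and the genotypes overlapped. The log2 fold changes were 0.35 ± 0.24, 0.06 ± 0.26 and 0.28 ± 0.32 (SE) for *C1qa*, *C1qb* and *C1qc*, with adjusted p of 0.554, 0.944 and 0.737 (edgeR). Without HFD WT replicate 1 they were 0.17, -0.10 and 0.037, and without HFD WT replicate 4 they were 0.55, 0.34 and 0.52. Without HFD Inpp4b-/- replicate 3 they were 0.22, -0.053 and 0.072. Per exon length the mean levels over all libraries were 22.7, 16.3 and 8.78 CPM per kb.

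Of the 7 genes that all macrophages share, 6 had a log2 fold change above 0 and *Lyz2* had one below 0, with a median of 0.22 and 0 called. *Cd68* and *Adgre1* are the usual histological macrophage markers, encoding a lysosomal sialomucin and the surface protein F4/80. The study used qRT-PCR primers for both, and reported *Adgre1* in epididymal fat and *Cd68* in fat, liver and prostate. In the liver of WT mice it described a modest rise of *Cd68* with HFD, a comparison of diets that these libraries do not hold. The primers are shown because they place each assay within the transcripts that were counted here. Each pair matched the annotated transcripts exactly, with an amplicon of 60 bases in Cd68-201 and of 66 bases in Adgre1-201. No part of a primer is marked by capitals.
Cd68 forward: tccactgttggccctcac
Cd68 reverse: ccccttggaccttggacta
Adgre1 forward: tgtcctccttgcctggac
Adgre1 reverse: gagacttctgagctgacactgc

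*Cd68* (chromosome 11, 69664213 to 69666153) was at 2.55, 4.25, 3.87 and 5.22 CPM in HFD WT and at 3.55, 2.92, 6.11 and 3.93 CPM in HFD Inpp4b-/-. The libraries of both genotypes were interleaved. With means of 3.97 ± 1.11 CPM in HFD WT and 4.13 ± 1.39 CPM in HFD Inpp4b-/- (SD, n = 4), the log2 fold change was 0.05 ± 0.29 (SE, edgeR, adjusted p = 0.955), and its 95% interval reached from -0.586 to 0.692.

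*Adgre1* (chromosome 17, 57358691 to 57483527) was at 1.81, 4.32, 2.12 and 2.42 CPM in HFD WT and at 3.36, 3.44, 5.89 and 2.56 CPM in HFD Inpp4b-/-. Of the HFD WT libraries, 3 lay below all those labelled HFD Inpp4b-/-, and HFD WT replicate 2 exceeded 3 of them. The log2 fold change was 0.51 ± 0.34 (SE, edgeR, adjusted p = 0.548), with 0.22 when HFD Inpp4b-/- replicate 3 was left out and 0.83 when HFD WT replicate 2 was.

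*Mpeg1* (chromosome 19, 12460779 to 12465283), which encodes the pore-forming protein perforin-2 of phagocytes, had the largest difference of the group. It was at 12.8, 41.4, 19.7 and 21.5 CPM in HFD WT and at 30.8, 37.0, 52.6 and 28.1 CPM in HFD Inpp4b-/-. As for *Adgre1*, only HFD WT replicate 2 reached into the range of the other genotype. Its log2 fold change was 0.64 ± 0.33 (SE, edgeR, adjusted p = 0.421). Without HFD WT replicate 2, *Mpeg1* was the 1 member that passed, with a log2 fold change of 1.04 and an adjusted p of 0.0987, whereas its adjusted p in the other settings tried reached 0.660.

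*Lyz2* (chromosome 10, 117277331 to 117282321), the lysozyme of macrophages and neutrophils, had the highest level per exon length of the group, at 18.4 CPM per kb. It was at 12.7, 25.7, 18.2 and 46.7 CPM in HFD WT and at 21.8, 20.4, 31.5 and 16.7 CPM in HFD Inpp4b-/-. HFD WT supplied both the lowest and the highest library. For this gene the log2 fold change of -0.19 ± 0.36 (SE) became 0.26 without HFD WT replicate 4. Reads of *Lyz2* can also match its near-identical neighbour *Lyz1*, so that its counts are uncertain.

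The remaining genes of this group overlapped between genotypes as well. *Csf1r*, the receptor for the growth factor that keeps macrophages alive, ranged from 7.01 to 24.7 CPM in HFD WT and from 17.5 to 26.0 CPM in HFD Inpp4b-/- (log2 fold change 0.44). It shares 873 exon bases with *Hmgxb3* on the opposite strand. *Ctss*, a lysosomal protease of antigen-presenting cells, had a log2 fold change of 0.18, and *Aif1*, the actin-binding protein IBA1, one of 0.22.

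**Figure D3:**
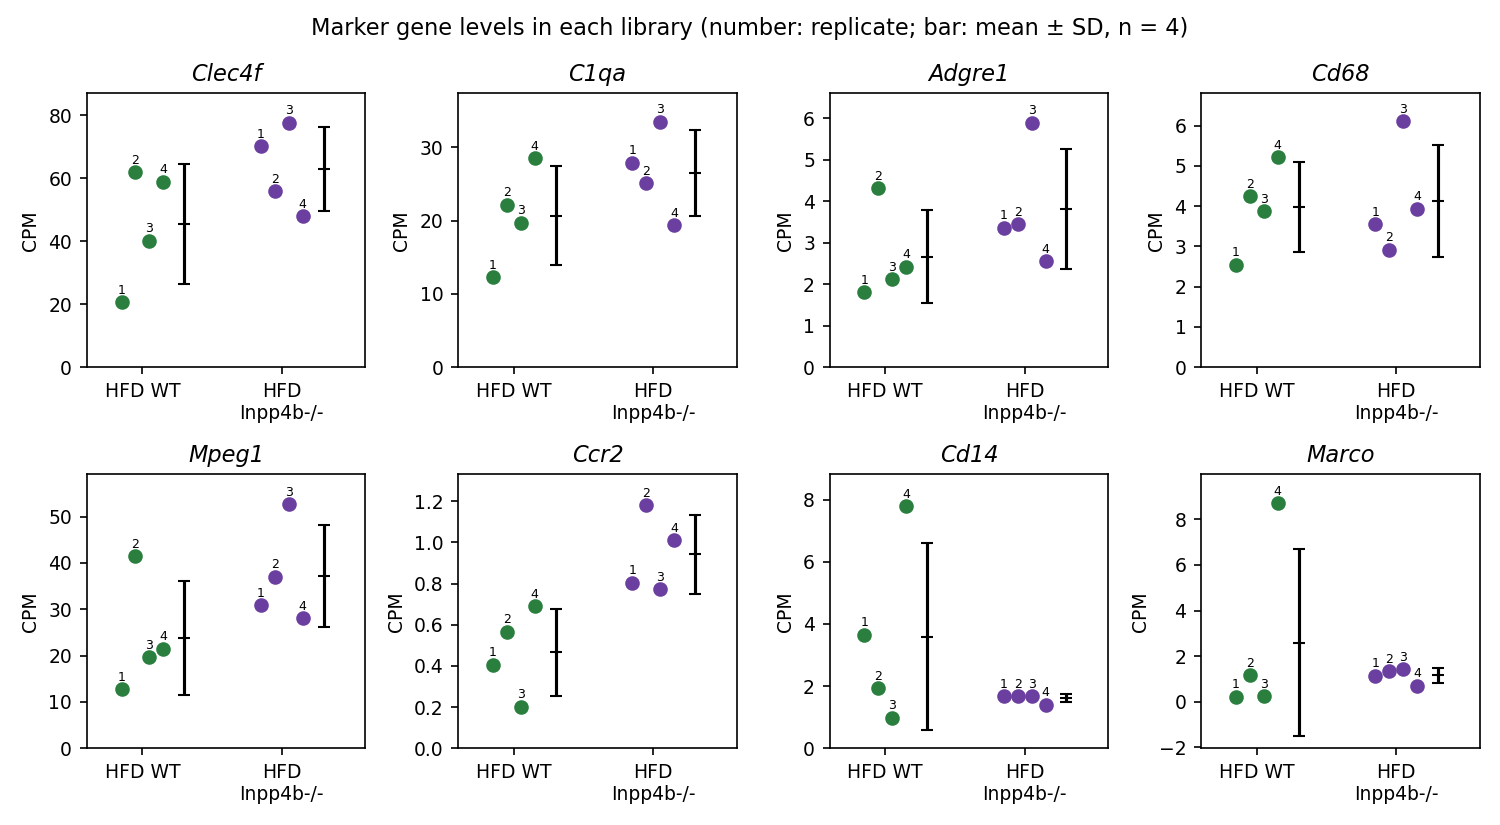
CPM of 8 marker genes in each library (numbered points) with the mean ± SD of each genotype (n = 4) beside them. The genotypes overlap for every gene shown except *Ccr2*, where the lowest library labelled HFD Inpp4b-/- is at 0.772 CPM and the highest HFD WT library at 0.691 CPM, and *Marco* and *Cd14* have their highest level in HFD WT replicate 4.

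The 5 genes for Fc receptors, signaling adaptors and the phagocyte oxidase all had a log2 fold change above 0, between 0.16 and 0.43, with 0 called. *Tyrobp* (chromosome 7, 30413760 to 30417585) encodes DAP12, the adaptor of TREM2 and related receptors, and had the highest level per exon length, at 6.92 CPM per kb. It was at 2.07, 4.38, 3.84 and 7.18 CPM in HFD WT and at 5.19, 5.83, 5.89 and 2.56 CPM in HFD Inpp4b-/-. Again the extremes were HFD WT replicates 1 and 4.

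*Fcgr1* (chromosome 3, 96282909 to 96293969), the high-affinity IgG receptor, had the largest difference of these 5 genes. It was at 0.148, 1.42, 0.910 and 0.883 CPM in HFD WT, where replicate 1 held 4 counts, and at 1.36, 0.946, 1.38 and 0.871 CPM in HFD Inpp4b-/-. Apart from HFD WT replicate 1 all libraries lay close together, and the log2 fold change was 0.43 ± 0.53 (SE, edgeR, adjusted p = 0.758). *Cybb*, the catalytic subunit of the phagocyte NADPH oxidase, and *Fcer1g*, the common gamma chain of Fc receptors, had log2 fold changes of 0.24 and 0.32.

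*Trem2*, the lipid-sensing receptor of macrophages in fatty liver, was near the limit of detection. It had 0, 10, 0 and 16 counts in HFD WT and 6, 1, 18 and 12 counts in HFD Inpp4b-/-. Both libraries without a count were HFD WT, and the other HFD WT libraries reached the upper part of the range. Only genes with reads in every library of a genotype were present, so zeros could fall in a single genotype only. Where the zeros of *Trem2* fell is therefore not a result. The 95% interval of *Trem2* reached from -2.25 to 2.74 on the log2 scale, so that no difference was detectable at this depth.

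Of the 4 genes grouped as recruited monocyte markers, 3 had a log2 fold change above 0 and *Cd14* had one below 0, and 0 were called. *Ccr2* (ENSMUSG00000049103, chromosome 9, 124101950 to 124113557), the chemokine receptor that brings monocytes from bone marrow and blood into tissue, was the 1 member of 33 whose genotypes did not overlap. Over all tested genes 8.72% did not overlap, 4.63% with HFD Inpp4b-/- above and 4.09% with it below. *Ccr2* was at 0.406, 0.567, 0.202 and 0.691 CPM in HFD WT and at 0.805, 1.18, 0.772 and 1.01 CPM in HFD Inpp4b-/-. These levels rest on 11, 18, 6 and 18 counts in HFD WT and on 29, 45, 24 and 36 counts in HFD Inpp4b-/-. Every library labelled HFD Inpp4b-/- lay above every HFD WT library, and the gap between the nearest of them was small. In the fit, its log2 fold change was 1.01 ± 0.42 (SE) with an adjusted p of 0.316 (edgeR), so the gene was not called. A two-sided exact permutation test gave p = 0.0286, the smallest that 4 against 4 libraries allow. Any gene without overlap gets this p, so it restates the separation and adds nothing to it. Between the genotypes the log2 fold change of *Ccr2* lay between 0.76 and 1.26 when single libraries were left out.

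*Cd14*, the co-receptor for bacterial lipopolysaccharide, had the highest level per exon length of the recruited genes and the largest difference. It was at 3.65, 1.92, 0.977 and 7.80 CPM in HFD WT and at 1.67, 1.68, 1.67 and 1.40 CPM in HFD Inpp4b-/-. The libraries labelled HFD Inpp4b-/- lay within a narrow band, while HFD WT replicates 1, 2 and 4 lay above it and replicate 3 below it. The fitted log2 fold change was -1.15 ± 0.53 (SE, edgeR, adjusted p = 0.374), and it was -0.44 without HFD WT replicate 4. For 7 of the 8 resident genes, in contrast, HFD WT replicate 1 was the lowest library.

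*Itgb2*, the beta chain of leukocyte integrins, ranged from 1.18 to 3.65 CPM in HFD WT and from 2.79 to 4.12 CPM in HFD Inpp4b-/-, with a log2 fold change of 0.40. *Itgam*, the alpha chain CD11b of the same integrin, held only 3 to 24 counts per library. It shares 3450 exon bases with the overlapping gene *Gm49368* on the same strand, and its counts are therefore uncertain. The summed CPM of the 4 genes of this group was 5.79, 6.33, 2.80 and 12.4 in HFD WT and 5.66, 5.73, 7.21 and 5.95 in HFD Inpp4b-/-, so that HFD WT enclosed the other genotype on both sides. *Itgb2* and *Cd14* supplied most of this sum. As *Itgb2* belongs to integrins of leukocytes in general, the sum does not measure recruited monocytes alone.

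For the 5 genes of leukocytes in general, 3 log2 fold changes were above 0 and 2 below, with 0 called. *Lcp1* (chromosome 14, 75131101 to 75230842), which encodes the actin-bundling protein L-plastin, had the highest level per exon length, at 7.56 CPM per kb. It was at 68.9, 70.6, 77.5 and 86.0 CPM in HFD WT and at 76.1, 72.5, 63.6 and 59.3 CPM in HFD Inpp4b-/-. Here HFD WT replicate 1 did not stand out, and the values lay closer together than those of the macrophage genes. Its log2 fold change was -0.16 ± 0.11 (SE, edgeR, adjusted p = 0.556). *Lcp1* overlaps the non-coding genes *Gm15628* and *Gm15629* on the opposite strand by 311 and 219 exon bases. Over all libraries *Lcp1* averaged 71.8 CPM, against 6.09 CPM for *Laptm5*, the next highest of the group. The part of other liver cells in the *Lcp1* values was not tested.

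*Coro1a* (chromosome 7, 126699773 to 126707787), an actin regulator of leukocytes, was at 2.36, 3.09, 1.92 and 4.69 CPM in HFD WT and at 4.80, 4.57, 3.96 and 3.79 CPM in HFD Inpp4b-/-. HFD WT replicates 1 to 3 lay below all libraries labelled HFD Inpp4b-/-, and HFD WT replicate 4 lay among them. For this gene the log2 fold change was 0.51 ± 0.28 (SE, edgeR, adjusted p = 0.449). *Ptprc*, the common leukocyte phosphatase CD45, and *Laptm5*, a lysosomal membrane protein of leukocytes, had log2 fold changes of 0.15 and -0.11. *Spi1*, which encodes PU.1, the transcription factor that myeloid cells depend on, ranged from 1.48 to 4.28 CPM in HFD WT and from 3.05 to 4.39 CPM in HFD Inpp4b-/- (0.38).

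*Cd74*, the invariant chain that escorts MHC class II molecules, had the highest level per exon length of all 33 genes, at 31.6 CPM per kb. It was at 24.9, 63.9, 43.1 and 65.3 CPM in HFD WT and at 67.3, 57.1, 55.2 and 47.2 CPM in HFD Inpp4b-/-. HFD WT replicates 2 and 4 matched the other genotype and replicates 1 and 3 lay below it. In the fit, its log2 fold change was 0.20 ± 0.26 (SE, edgeR, adjusted p = 0.775), and it was -0.02 without HFD WT replicate 1.

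**Figure D4:**
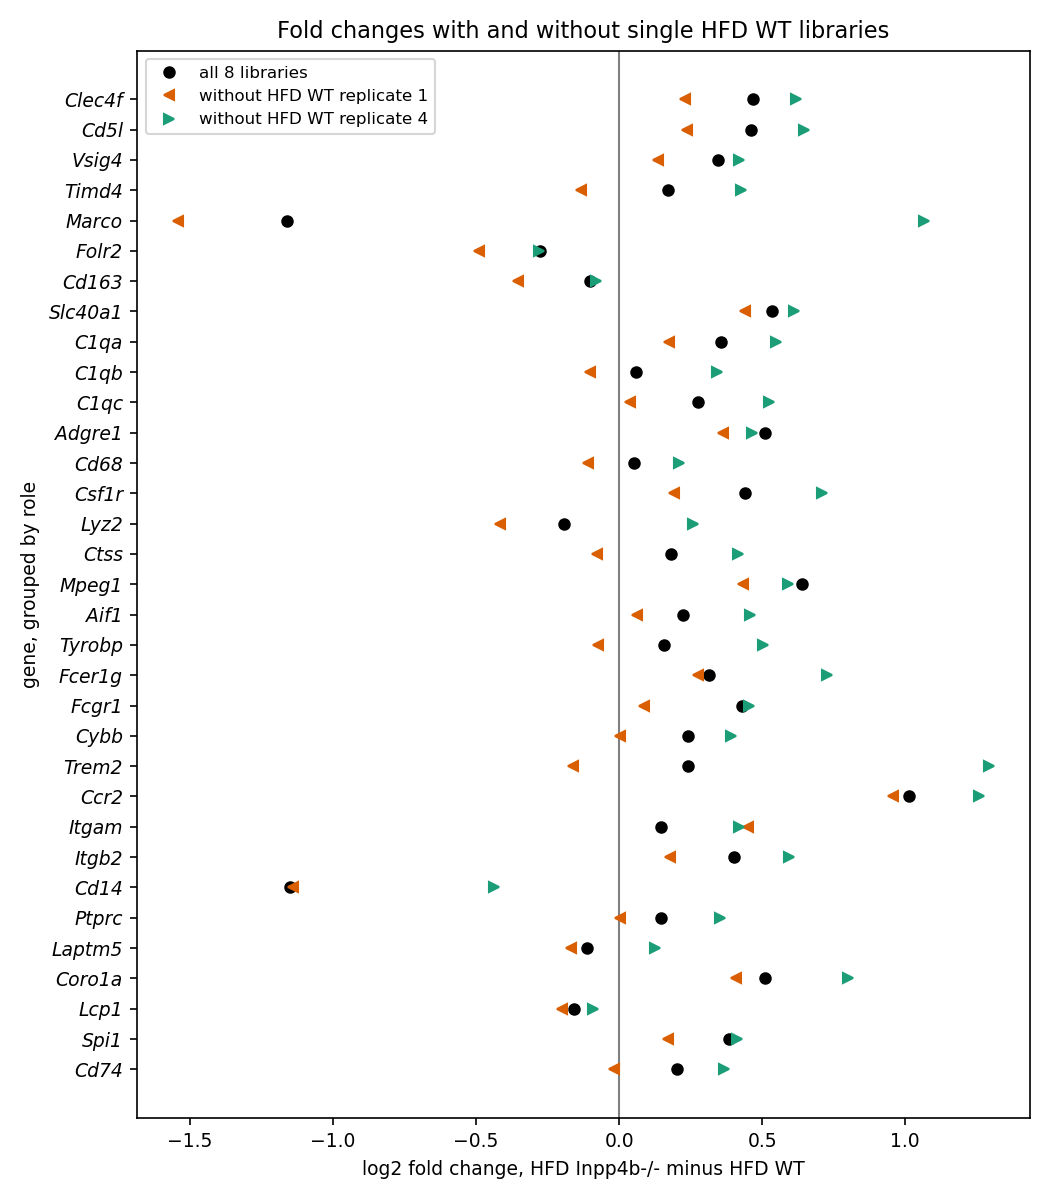
Log2 fold change of each of the 33 genes with all 8 libraries (circles), without HFD WT replicate 1 (triangles pointing left) and without HFD WT replicate 4 (triangles pointing right). Leaving out replicate 1 moves most genes toward lower values, with 19 of 33 above 0, and leaving out replicate 4 moves most toward higher values, with 29 of 33 above 0.

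The members varied together among mice of the same genotype. After the mean of each genotype was subtracted from log2(CPM + 0.1), the 528 pairs of members had a median Pearson's r of 0.616 over the 8 libraries, with a range of -0.739 to 0.994, and 485 pairs were above 0. The median Spearman's rho was 0.619. The same members set against all tested genes had a median r of 0.005. The 8 points of each pair share their libraries and normalization, so these values are descriptions. Leaving out HFD WT replicates 1 and 4 together gave a median of 0.54 over 6 libraries, with 440 pairs above 0.

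The closest pair was *Clec4f* and *Timd4*, with r of 0.994. *Clec4f* and *Cybb* had r of 0.984, *C1qb* and *Lyz2* 0.975, and *C1qa* and *C1qc* 0.971. Genes with low medians were *Itgam*, with a median r of -0.097 to the other members, *Cd14* with 0.171, *Ccr2* with 0.28, *Slc40a1* with 0.336 and *Fcer1g* with 0.358. *Cd14* and *Fcer1g* were closest to each other, with r of 0.912, and *Slc40a1* was closest to *Lcp1*, with r of 0.943.

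**Figure D5:**
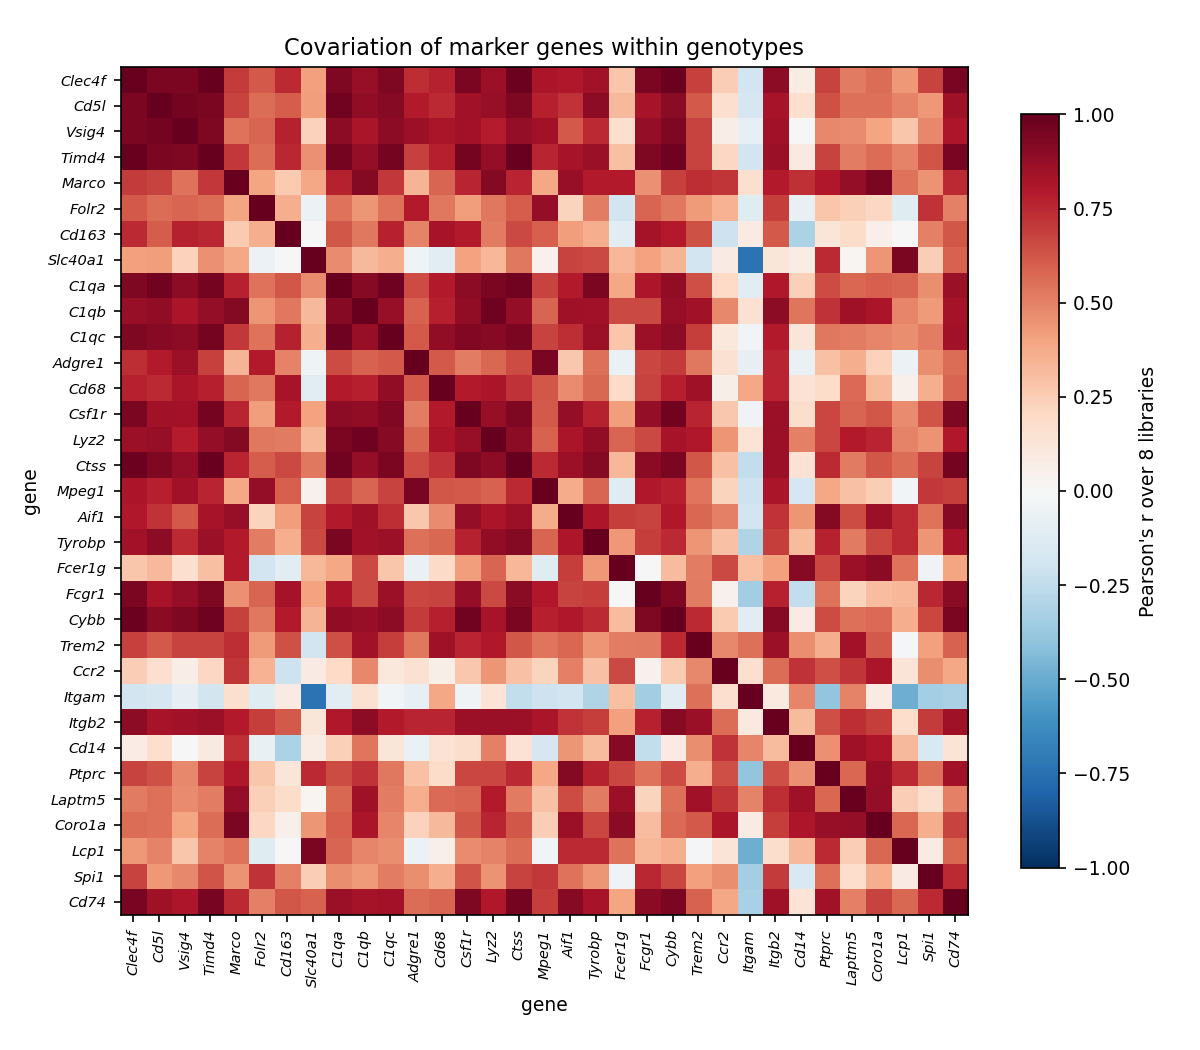
Pearson's r between the 33 genes over 8 libraries, computed on log2(CPM + 0.1) after the mean of each genotype was subtracted. Most pairs are above 0 (485 of 528, median 0.616), and the rows of *Itgam*, *Cd14*, *Slc40a1* and *Fcer1g* are paler or blue.

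Promoters of the closest pair, and of the members that hold the core letters bound by PU.1, are shown because the genes of the set varied together. RefSeq windows from 250 bases before to 50 after the start (GRCm38.p6) were matched by symbol for 24 of the 33 members. GAGGAAGT, searched on both strands, was found in 2 of 24 (8.33%) and in 887 of 27025 windows of all genes (3.28%). These 2 were *C1qc*, at position -195 from the start, and *Ctss*, at position -2, and in both the letters read ACTTCCTC on the strand of the gene. The shorter core GGAA, which GAGGAAGT contains, was in all 24 windows and in 95.9% of all windows, so that its presence separates no gene set. A match is a run of letters and was not tested for binding. The sequences below run from 250 bases before to 10 after the start, 5′ to 3′ on the strand of the gene. Capitals mark GGAA or its complement TTCC in *Clec4f* (chr6:83656107-83656366, minus strand) and *Timd4* (chr11:46810549-46810808, plus strand), and ACTTCCTC in *C1qc* (chr4:136892905-136893164, minus strand) and *Ctss* (chr3:95526536-95526795, plus strand).
Clec4f: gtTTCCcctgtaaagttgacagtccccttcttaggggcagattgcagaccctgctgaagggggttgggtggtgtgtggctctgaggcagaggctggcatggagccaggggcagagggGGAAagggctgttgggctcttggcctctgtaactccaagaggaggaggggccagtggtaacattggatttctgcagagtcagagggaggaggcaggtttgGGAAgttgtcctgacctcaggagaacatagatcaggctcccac
Timd4: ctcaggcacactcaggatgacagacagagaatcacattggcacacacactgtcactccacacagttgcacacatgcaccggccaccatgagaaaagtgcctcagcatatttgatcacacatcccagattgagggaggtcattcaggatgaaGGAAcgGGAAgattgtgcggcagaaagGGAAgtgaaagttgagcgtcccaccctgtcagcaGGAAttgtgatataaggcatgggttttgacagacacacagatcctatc
C1qc: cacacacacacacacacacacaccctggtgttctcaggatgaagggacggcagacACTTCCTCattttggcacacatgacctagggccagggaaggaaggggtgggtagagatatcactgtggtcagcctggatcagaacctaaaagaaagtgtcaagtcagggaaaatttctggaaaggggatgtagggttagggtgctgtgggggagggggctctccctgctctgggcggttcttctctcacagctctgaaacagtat
Ctss: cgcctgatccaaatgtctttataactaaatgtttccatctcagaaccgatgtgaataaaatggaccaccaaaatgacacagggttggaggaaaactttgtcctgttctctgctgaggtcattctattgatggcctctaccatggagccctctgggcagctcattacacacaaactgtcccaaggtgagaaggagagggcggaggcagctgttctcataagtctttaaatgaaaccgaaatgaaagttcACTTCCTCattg

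Further Kupffer cell genes were read from a list of 10, all tested. Of these, 6 had a log2 fold change above 0 and 4 below, with a median of 0.14, and 1 was called. The called gene was *C6*, a terminal complement component that is secreted mainly by hepatocytes and is also listed among mouse Kupffer cell transcripts. It was at 665, 363, 622 and 483 CPM in HFD WT and at 162, 212, 299 and 295 CPM in HFD Inpp4b-/-. All libraries labelled HFD Inpp4b-/- lay below all HFD WT libraries, and *C6* fell by 1.14 ± 0.23 (SE) on the log2 scale (edgeR, adjusted p = 0.0804). The calls over all genes were 0.619% in this direction, and 4.09% of all tested genes did not overlap in it. *Spic*, a transcription factor of iron-recycling macrophages, was above in every library labelled HFD Inpp4b-/- (1.10 to 1.25 CPM) compared with HFD WT (0.0738 to 0.913 CPM), and was not called (log2 fold change 1.02, edgeR, adjusted p = 0.459). Such a separation upward was seen for 4.63% of all tested genes.

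Genes of monocytes and of the lipid-associated macrophages of fatty liver were read from a list of 17, of which 15 were in the table and 13 were tested. Of the 13, 9 had a log2 fold change above 0 and 4 below, with a median of 0.40 and 0 called. *Ly6c2*, *Spp1* and *Clec7a* did not overlap between the genotypes, with higher levels in HFD Inpp4b-/-, as did 4.63% of all tested genes. *Ly6c2* rests on 8, 5, 1 and 9 counts in HFD WT and on 13, 17, 24 and 20 in HFD Inpp4b-/- (edgeR, adjusted p = 0.342). *Clec7a* rests on 5, 27, 25 and 25 counts in HFD WT and on 55, 39, 58 and 39 in HFD Inpp4b-/- (edgeR, adjusted p = 0.398). *Spp1*, which encodes osteopontin and is also made by bile duct cells, was at 21.4, 17.3, 17.9 and 22.8 CPM in HFD WT and at 26.3, 23.9, 31.5 and 34.0 CPM in HFD Inpp4b-/- (log2 fold change 0.54 ± 0.14, SE, edgeR, adjusted p = 0.141). Among bile duct markers *Krt19*, *Krt7* and *Epcam* had log2 fold changes of 0.90, 0.49 and 0.39 and *Sox9* one of -0.71, none of them called, and the part of bile duct cells in the *Spp1* values was not tested. *Fabp5*, a fatty acid-binding protein with the most reads of the list, had a log2 fold change of -0.94 (edgeR, adjusted p = 0.432). *Chil3* and *S100a4* were not analysed here.

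Of 13 tested chemokine and cytokine genes 3 had a log2 fold change above 0 and 10 below, with a median of -0.33, and 0 were called. *Ccl2*, the ligand of CCR2, was at 3.39, 0.189, 0.337 and 13.9 CPM in HFD WT and at 0.694, 0.526, 0.0322 and 0.0281 CPM in HFD Inpp4b-/-. *Cxcl1*, a neutrophil attractant with the most reads of the list, was at 113, 4.09, 5.59 and 304 CPM in HFD WT and at 23.4, 7.18, 10.8 and 4.97 CPM in HFD Inpp4b-/-. For both genes HFD WT replicates 1 and 4 were far above the rest, as they were for *Cd14*. Their fitted log2 differences were -3.75 ± 1.33 and -3.20 ± 1.20 (SE), with adjusted p of 0.260 and 0.279 (edgeR). *Il18*, a cytokine released after inflammasome activation, did not overlap and was at 6.84 to 9.51 CPM in HFD WT and at 10.01 to 12.8 CPM in HFD Inpp4b-/- (log2 fold change 0.44 ± 0.14, SE, edgeR, adjusted p = 0.219). Among all tested genes 4.63% did not overlap with HFD Inpp4b-/- above. *Ccl24*, an eosinophil attractant, overlapped and had a log2 fold change of 1.06 ± 0.45 (SE, edgeR, adjusted p = 0.337).

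*Csf1*, the ligand of CSF1R, was at 21.7, 19.8, 13.3 and 26.4 CPM in HFD WT and at 12.2, 10.3, 11.1 and 13.1 CPM in HFD Inpp4b-/-. Its genotypes did not overlap, as for 4.09% of all tested genes in this direction, and it missed the threshold (log2 fold change -0.80 ± 0.19, SE, edgeR, adjusted p = 0.121). Of 10 tested Toll-like receptor genes 5 were above 0 and 5 below, with 0 called. *Cd180*, among those above 0, had 0 counts in HFD WT replicate 1. It was in the table only through HFD Inpp4b-/-, so its sign is partly selected. *Tlr2* was at 7.67, 2.93, 0.910 and 5.15 CPM in HFD WT and at 0.843 to 0.998 CPM in HFD Inpp4b-/- (log2 fold change -2.17 ± 0.53, SE, edgeR, adjusted p = 0.134). *Myd88*, the adaptor of these receptors, had its highest levels in HFD WT replicates 1 and 4, at 33.1 and 25.7 CPM. The part of these 2 libraries in the values of *Cd14* was measured only by leaving each out.

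Markers of other liver cells were summed in the same libraries. The 13 sinusoidal endothelial markers summed to 256 to 330 CPM in HFD WT against 246 to 318 CPM in HFD Inpp4b-/-, with a median log2 fold change of 0.01 and 0 called. The 9 stellate cell markers summed to 203 to 284 CPM and 219 to 260 CPM, with 3 log2 fold changes above 0, 6 below and 0 called. Of the 9, *Lrat* did not overlap, at 6.38 to 11.18 CPM in HFD WT and 11.29 to 15.96 CPM in HFD Inpp4b-/-. Its log2 fold change was 0.73 ± 0.20 (SE, edgeR, adjusted p = 0.164), and 4.63% of all tested genes did not overlap in this direction. Over 9 hepatocyte markers the sums were 82320 to 93400 CPM in HFD WT and 82910 to 105100 CPM in HFD Inpp4b-/-, with 0 called. Most of each sum was *Alb*. Of the 9, 2 did not overlap with HFD Inpp4b-/- above and 1 with it below, beside 4.63% and 4.09% of all tested genes. The sums of the 8 resident Kupffer cell genes spread more widely, from 159 to 293 CPM in HFD WT and from 247 to 396 CPM in HFD Inpp4b-/-. *Slc40a1* supplied most of these sums, and without it, an alternative chosen after seeing the data, the other 7 genes summed to 41.2, 120, 79.3 and 123 CPM in HFD WT and 133, 102, 158 and 83.3 CPM in HFD Inpp4b-/-. Blood content varied as well, since the 5 erythroid markers summed to 114 to 431 CPM in HFD WT against 208 to 346 CPM in HFD Inpp4b-/-. Of these 5, *Hba-a2* was called (log2 fold change -2.92, edgeR, adjusted p = 0.0570), while 0.619% of all tested genes were called lower. Its paralog *Hba-a1* had a log2 fold change of 0.85 (edgeR, adjusted p = 0.443). How reads shared by the pair were assigned is not given, so that both are uncertain. The part of blood content in the leukocyte values was not tested.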

How the data were processed

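RNA-seq libraries of mouse liver (HFD WT, n = 4; HFD Inpp4b-/-, n = 4) were grouped by their labels. Per the labels, total RNA was depleted of ribosomal RNA. Paired-end reads of 150 bp were mapped by HISAT2 (GRCm38) and counted by HTSeq, and the authors deposited the raw counts per gene. Versions, annotation release and strand setting are not given in the sources used here. Each of its 18095 genes, all matched to GENCODE M21, had 1 or more reads in every library of a genotype. A second table of normalized values was not used. Totals of 25893430 to 36662531 counts limit the precision of genes with few counts.

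Counts were fitted over all genes with edgeR 4.0.16 (TMM, filterByExpr, quasi-likelihood test, no covariate, R 4.3.3). Calls required an adjusted p (Benjamini-Hochberg) below 0.10 with a fold above 1.3, the study's thresholds. The study applied them to DESeq2 results and kept only genes that passed with each of its aligners, HISAT2 and STAR. Only the HISAT2 counts were used here. Exact permutation tests used all 70 arrangements of log2(CPM + 0.1). The procedure was tested on simulated data. Alternatives were DESeq2 1.42.0, other normalizations, filters and thresholds, a block for the replicate number and fits without single libraries. Python 3.11.15 and matplotlib 3.10.9 drew the figures.

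The 33 members and all lists were chosen with earlier results of these data known. Values in every library are given for called and non-overlapping members, *Cd68*, *Adgre1*, the C1q genes and, in each role group, the member with the highest level per exon length and that with the largest absolute log2 fold change. Of the other lists, called genes and the gene with most reads are named. A listed bile duct marker is not reported here. *Slc40a1*, *Timd4*, *Spic*, *Spp1*, *Ly6c2*, *Clec7a*, *Ccl2*, *Csf1*, *Il18*, *Ccl24*, *Tlr2*, *Cps1*, *Lrat*, the bile duct markers and the genes of the last section were added after their values were seen.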

Additional observations from a re-analysis of the deposited data

Results flagged for a closer look

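Of 66 groups of 4 libraries (33 genes in 2 genotypes), 3 held a library far from the other 3, and chance alone gives about 3.3. *Marco* in HFD WT replicate 4 was at 8.72 CPM, with the nearest HFD WT library at 1.17 CPM. *Fcer1g* in HFD Inpp4b-/- replicate 1 was at 2.64 CPM, above the nearest library of its group at 1.84 CPM. *Cd14* in HFD Inpp4b-/- replicate 4 was at 1.40 CPM, below the nearest at 1.67 CPM, within a group that was narrow as a whole.

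HFD WT replicate 4, which held the high *Marco* level, was also the HFD WT library with the most *Cd14* (7.80 CPM), *Lyz2* (46.7 CPM), *Cxcl1* (304 CPM) and *Ccl2* (13.9 CPM), and among the erythroid markers it held the most *Alas2* (86.5 CPM). The part of these in the *Marco* level was not tested.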

How the results depend on the processing

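The count of members called stayed at 0 with DESeq2, other normalizations, filters, thresholds and the replicate block, and ranged from 0 to 1 when single libraries were left out (1, *Mpeg1*, without HFD WT replicate 2). Over all genes, 174 calls became 688 with DESeq2, 71 at an adjusted p under 0.05 and 53 to 345 when single libraries were left out. The lowest of these was without HFD Inpp4b-/- replicate 2 and the highest without HFD WT replicate 2. Same-numbered libraries did not deviate together (r of -0.121, -0.136, -0.016 and -0.176), so these values gave no sign that the numbers pair them. Such correlations cannot exclude a shared litter, cage or day, on which the labels say nothing. With the replicate block 26 genes were called, and the log2 fold changes of *Marco* (0.40) and *Itgam* (-0.051) changed sign. The median over the members lay between 0.037 and 0.45 when single libraries were left out. The sign changed in such fits for *Marco* (-1.54 to 1.07), *Trem2* (-0.38 to 1.29), *Folr2* (-0.51 to 0.093), *Itgam* (-0.26 to 0.49), *Lyz2* (-0.42 to 0.26), *Cd163* (-0.35 to 0.11), *Tyrobp* (-0.074 to 0.50), *Timd4* (-0.13 to 0.43), *Ctss* (-0.076 to 0.41), *C1qb* (-0.10 to 0.34), *Cd68* (-0.20 to 0.21), *Laptm5* (-0.27 to 0.13) and *Cd74* (-0.018 to 0.37), none of them called. The causes were not tested. With at least 10 counts in every library, 27 members were tested, so low counts limit the other 6.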

Other observations

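Lymphoid and dendritic markers were scarce in the same libraries. Of 7 tested B cell markers, 6 had a log2 fold change above 0 and 1 below, with 0 called. *Ms4a1*, among those above 0, had 0 counts in HFD WT replicate 1. It was in the table only through HFD Inpp4b-/-, so its sign is partly selected. *Cd79b*, a chain of the B cell receptor, was at 0.332, 0.252, 0.438 and 0.461 CPM in HFD WT and at 0.999, 0.578, 1.03 and 1.18 CPM in HFD Inpp4b-/-, without overlap (log2 fold change 1.35 ± 0.38, SE, edgeR, adjusted p = 0.176). The share of all tested genes without overlap in this direction was 4.63%. *Ighm*, with the most reads of the list, had a log2 fold change of -0.61 (edgeR, adjusted p = 0.675).

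Of 4 tested dendritic cell markers 3 were above 0 and 1 below, with 0 called. *Siglech*, a lectin of plasmacytoid dendritic cells, was at 0, 0.315, 0.0337 and 0.0768 CPM in HFD WT and at 1.03, 0.841, 0.965 and 0.534 CPM in HFD Inpp4b-/-, without overlap (log2 fold change 2.89 ± 0.75, SE, edgeR, adjusted p = 0.152). These levels rest on 0, 10, 1 and 2 counts in HFD WT and on 37, 32, 30 and 19 in HFD Inpp4b-/-. Only genes with reads in every library of a genotype were present, and *Siglech* met this only through HFD Inpp4b-/-. Its difference is therefore partly selected. Among all tested genes 4.63% did not overlap in this direction. *Zbtb46* had the most reads of this list, with a log2 fold change of -0.15.

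Of the neutrophil markers 3 were tested, all with a log2 fold change below 0 and 0 called. *Csf3r* had the most reads of them (-1.02, edgeR, adjusted p = 0.596). The 2 tested T cell markers, *Cd4* (-0.40) and *Lck* (-0.05), and the 1 tested NK cell marker, *Klrk1* (-0.05), were not called. Adipocyte markers were not analysed here.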
